A study of Mus musculus with 6 samples.

Results

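The collagen genes of mouse gastrocnemius/plantaris (GP) muscle, a mixed calf muscle, were examined by bulk RNA-Seq. They were taken as the gene symbols that start with Col, a type number, the letter a and a chain number, which 45 of the 24421 genes in the count tables do. One of the 45, Col4a3bp, encodes a ceramide transfer protein and not a collagen, which leaves 44 collagen genes, of which 11 encode fibrillar chains, 9 encode chains of basement membranes and their anchoring structures and 24 encode other types. Of the 44, 41 had enough counts to be tested. Those left out were Col10a1, with counts of 5, 5 and 2 under the label Ctrl and 0, 3 and 0 under the label cKO, Col6a5, with 3, 4 and 13 against 2, 13 and 5, and Col6a4, with 2, 26 and 22 against 3, 3 and 3.

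The 6 libraries came from 6 mice on a B6C3F1 background at 5 months of age, 3 months after tamoxifen. The labels give Net39 fl/fl mice without Cre for the 3 libraries labelled Ctrl and HSACreERT2;Net39 fl/fl mice for the 3 labelled cKO, and by these labels and the study's methods both groups carry the floxed alleles and received tamoxifen. Net39 is a protein of the nuclear envelope. In the conditional model, loxP sites flank the first exon of Net39, and the Cre is driven by the human skeletal actin promoter, which is active in muscle fibers and not in the fibroblasts that make most interstitial collagen. The counts of Net39, listed under its older symbol Ppapdc3, went against the labels. Ppapdc3 was at 7.92, 7.75 and 5.93 CPM (counts scaled to the library total) under the label Ctrl and at 151, 113 and 138 CPM under the label cKO. The targeted gene was thus 18.6-fold higher in the group labelled cKO (log2 fold change 4.22, SE 0.17, edgeR adjusted p = 0.000161), the opposite of what the labels state. Whether the labels of the groups were exchanged was not tested, so which libraries lack Net39 is not known from the labels, and every direction below is given for the labelled groups only.

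Total counts ranged from 33860001 to 48839910 per library and were higher in each library labelled cKO than in each labelled Ctrl, and CPM was scaled with TMM factors (1.08 to 1.11 under the label Ctrl, 0.865 to 0.983 under the label cKO). Muscle fiber markers were abundant in all libraries, with a summed level of 71715 to 100033 CPM under the label Ctrl and 133978 to 182563 CPM under the label cKO. Of the 6 markers, 5 passed the test (an adjusted p under 0.05) as higher in the latter, as did 12.6% of all genes. Myh4, the myosin of type IIb fibers, held 38.8% of the summed level over the 6 libraries. The marker that did not pass, Acta1, overlapped between the groups (log2 fold change 0.19, edgeR adjusted p = 0.474). Slow fiber markers summed to 5044 to 9457 CPM against 219 to 2375 CPM. All 6 were lower without overlap (log2 fold change -2.70 to -1.91), as were 21.9% of all genes, and 2 of them passed edgeR's test and 6 passed DESeq2's, beside 11.8% and 12.3% of all genes that passed as lower. Macrophage markers summed to 215 to 231 CPM against 106 to 134 CPM, and 8 of 9 passed as lower in the libraries labelled cKO, as did 11.8% of all genes. Whole muscle was measured, so fewer cells of a type and less RNA per cell cannot be told apart.

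Collagens are secreted proteins whose chains wind around each other into helical trimers, and each chain has its own gene. Fibrillar collagens (types I, III, V and XI among them) assemble into the cross-striated fibrils that carry tension between muscle fibers and tendon, type IV forms the sheet-like network of the basement membrane around each fiber and capillary, type VI forms beaded filaments next to that membrane, and the fibril-associated collagens decorate the surface of fibrils. In skeletal muscle most of these chains are made by fibro-adipogenic progenitors, by tendon cells and by vascular cells, while a few are products of the muscle fiber itself and mark its junctions with nerve and tendon.

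Collagen transcripts made up 0.178% to 0.247% of all counts under the label Ctrl and 0.0962% to 0.213% under the label cKO. To compare levels between genes, CPM was divided by the mRNA length of the transcript with the longest coding sequence (CPM per kb). On this scale the 44 genes summed to 305, 283 and 391 CPM per kb under the label Ctrl (327 ± 57.1, SD, n = 3) and to 187, 374 and 233 CPM per kb under the label cKO (265 ± 97.1, SD, n = 3). The groups overlapped, because cKO 2 lay above Ctrl 1 and Ctrl 2. The ratio of the means was -0.30 on the log2 scale, less than the spread between libraries, and ran from -0.64 without cKO 2 to -0.11 without cKO 1. No test was made of this sum.

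The level was carried by few chains. Col1a2 held 17.3% of the summed CPM per kb on average over the 6 libraries, Col3a1 17.0%, Col4a1 10.4%, Col1a1 8.86%, Col4a2 8.54%, Col6a1 7.84% and Col6a2 6.62%. With Col15a1 and Col6a3 these 9 genes held 81.8% of it. The share of Col3a1 was 21.1%, 19.8% and 22.7% under the label Ctrl and 12.6%, 12.2% and 13.4% under the label cKO, so that it ranked first among the collagens in each library labelled Ctrl and below Col1a2 in each labelled cKO.

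The fibrillar class summed to 167, 148 and 204 CPM per kb under the label Ctrl and 80.3, 223 and 115 CPM per kb under the label cKO. Its libraries labelled cKO held both the lowest and the highest sum of all 6, and the log2 ratio of the means was -0.31, or -0.83 without cKO 2 and -0.036 without cKO 1. The basement membrane class summed to 65.8, 66.3 and 96.9 CPM per kb against 58.4, 77.7 and 59.8 CPM per kb, with a log2 ratio of the means of -0.23, or -0.017 without Ctrl 3 and -0.37 without cKO 2. The remaining types summed to 72.6, 68.9 and 90.0 CPM per kb against 48.3, 72.8 and 58.9 CPM per kb, with a log2 ratio of the means of -0.36, which ran from -0.53 without cKO 2 to -0.23 without cKO 1. In every class cKO 2 was the highest of the libraries labelled cKO.

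**Figure D1:**
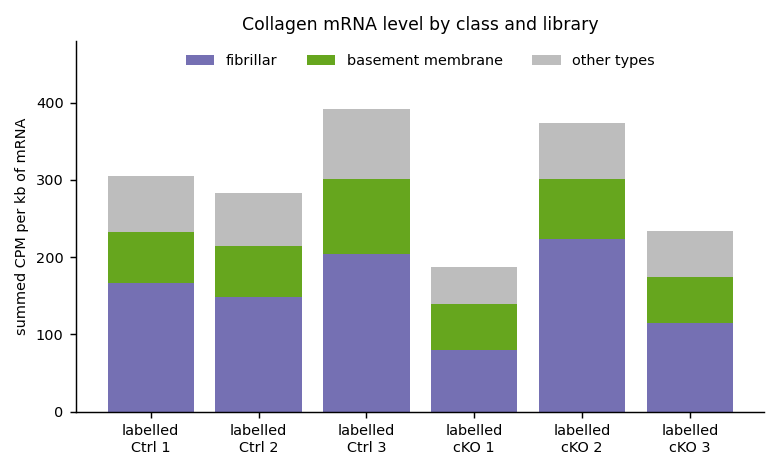
Summed level of the collagen genes in each library, in CPM per kb of mRNA, with the 3 classes stacked. The bars of the libraries labelled cKO run from 187 to 374 CPM per kb and span those of 2 libraries labelled Ctrl, and most of that range lies in the fibrillar class.

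Of the collagen genes, 10 had an adjusted p under 0.05 in edgeR's quasi-likelihood test, referred to below as passing the test, and 3 of these also differed by more than 2-fold, referred to as called. Of the 10, 6 were lower in the libraries labelled cKO (Col8a1, Col3a1, Col5a2, Col14a1, Col23a1 and Col5a1), as were 11.8% of all genes, and 4 were higher (Col9a1, Col22a1, Col13a1 and Col4a4), as were 12.6%. The 10 of 41 are 24.4% of the collagens tested, and 24.4% of all 14180 genes tested passed. Called were 3 collagens (6.05% of all genes were), 2 lower in the libraries labelled cKO, where 3.92% of all genes were, and 1 higher, where 2.13% of all genes were. The median log2 fold change over the 41 genes was -0.04, beside -0.02 over all genes, and in this fit the share that passed was that of the whole transcriptome. By class, edgeR's test passed 3 of 11 fibrillar chains as lower and 0 as higher, 0 of 9 basement membrane chains as lower and 1 as higher, and 3 of 21 tested chains of other types in each direction. For the 2 counts of 0, 1 fibrillar chain was higher and 1 basement membrane chain lower at an unadjusted p under 0.05, and DESeq2 passed 1 and 0. Of all genes, 38.8% had an unadjusted p under 0.05 (19.2% higher and 19.6% lower), and DESeq2 passed 26.4% (14.1% as higher and 12.3% as lower). The share of collagens that passed edgeR's test depended on the libraries. Without cKO 3, 1 of 43 tested passed, as lower, beside 10.8% of all genes. Without cKO 2, of 42 tested 9 passed as lower and 1 as higher, beside 24.8% of all genes.

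**Figure D2:**
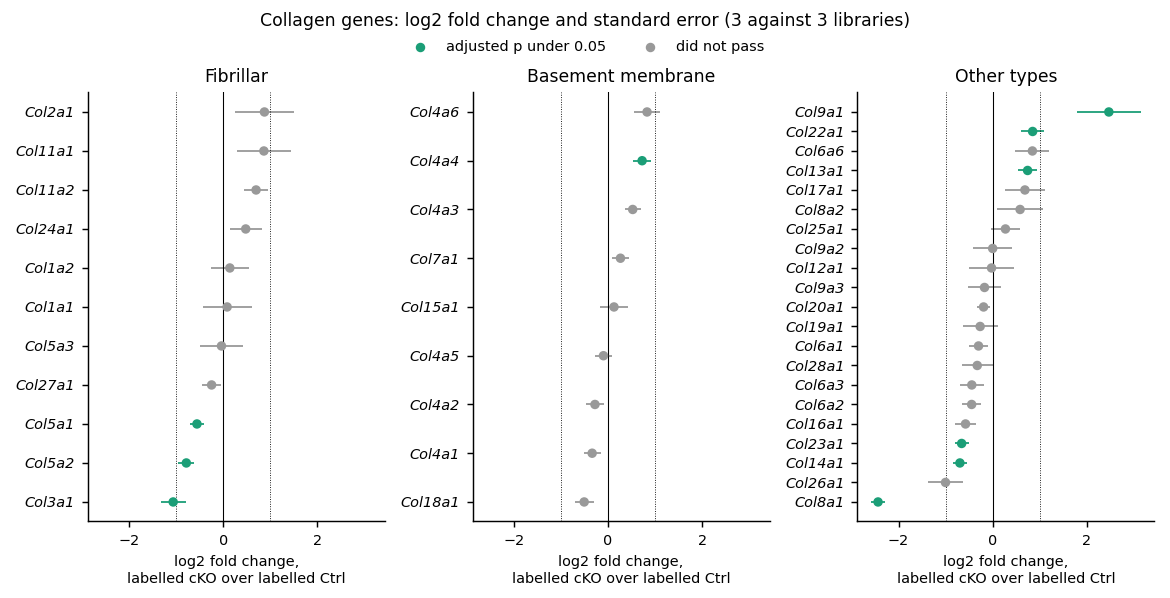
Log2 fold change of each of the 41 collagen genes tested, labelled cKO over labelled Ctrl, with its standard error, by class; dotted lines mark a 2-fold change and green marks an adjusted p under 0.05. Col8a1 (-2.44) and Col9a1 (2.46) lie at the ends, and the standard error of Col9a1 (0.68) is over 4 times that of Col8a1 (0.15).

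Col8a1 encodes a short-chain collagen that forms hexagonal networks in vessel walls and in remodelled connective tissue. It lies on the minus strand of chromosome 16 from 57624258 to 57754737 (GRCm38, also called mm10). Its level was 37.2, 31.2 and 35.7 CPM under the label Ctrl and 5.05, 7.37 and 6.77 CPM under the label cKO. The groups were far apart and each was narrow, with a highest over lowest ratio of 1.19 and 1.46. Col8a1 was 5.41-fold lower in the libraries labelled cKO (log2 fold change -2.44, SE 0.15, edgeR adjusted p = 0.000627). It was the only collagen that kept its call in each of the 13 alternatives run, where the log2 fold change ranged from -2.68 to -2.31 with an adjusted p of at most 0.00763.

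The partner chain gave overlapping groups. Col8a2 was at 3.86, 2.32 and 2.35 CPM under the label Ctrl and 1.92, 7.61 and 3.20 CPM under the label cKO (log2 fold change 0.58, SE 0.49, edgeR adjusted p = 0.417). Per kb, Col8a1 transcripts exceeded those of Col8a2 by 8.18, 11.4 and 12.9 times in the libraries labelled Ctrl and stood at 2.23, 0.822 and 1.79 times their level in those labelled cKO. The log2 ratio differed by -2.84 with no overlap, and an exact two-sided permutation test gave p = 0.1, the smallest that 3 against 3 libraries allow (0.18 adjusted over the 9 chain pairs compared).

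Col3a1, the chain of type III collagen, which forms thin fibrils together with type I, lies on the plus strand of chromosome 1 from 45311538 to 45349706. It was at 359, 312.5 and 494 CPM under the label Ctrl and 131, 254 and 174 CPM under the label cKO. The highest library labelled cKO lay below the lowest labelled Ctrl. Col3a1 was 2.09-fold lower in the libraries labelled cKO (log2 fold change -1.06, SE 0.27, edgeR adjusted p = 0.0281). It no longer passed without any 1 of Ctrl 1, Ctrl 3, cKO 1 or cKO 3, where the adjusted p was 0.0699, 0.0638, 0.0698 and 0.0896.

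Col9a1 encodes a chain of type IX collagen, a fibril-associated collagen best known from cartilage, and lies on the plus strand of chromosome 1 from 24177610 to 24252684. It was at 0.562, 1.25 and 2.24 CPM under the label Ctrl and 7.42, 2.26 and 12.6 CPM under the label cKO. The groups did not overlap, but the lowest library labelled cKO, cKO 2, was level with Ctrl 3. Col9a1 was 5.51-fold higher in the libraries labelled cKO (log2 fold change 2.46, SE 0.68, edgeR adjusted p = 0.0384). It did not pass without Ctrl 1, Ctrl 2, cKO 1 or cKO 3, where the adjusted p was 0.112, 0.111, 0.0935 and 0.116, nor with a robust dispersion. The log2 fold change was 1.83 without cKO 3 and 3.02 without Ctrl 3. The other chains of type IX were low, with Col9a2 at 0.217 to 0.477 CPM and Col9a3 at 0.191 to 0.358 CPM over the 6 libraries, and neither passed the test. Col9a3 shares 6.07% of its exon bases with Tcfl5 on the opposite strand.

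The sequences just upstream of these 3 called genes are shown because Col8a1, Col3a1 and Col9a1 both passed the test and differed by over 2-fold. Each is the stretch of 250 bases before the start site, taken from RefSeq's GRCm38 promoter table and written 5′ to 3′ on the strand of the gene, with capitals marking matches on either strand to the TATA box core (TATAAA), the motif CCAAT that bears its own name, the GC box (GGGCGG), the AP-1 element (TGANTCA, where N is any base) and the TEAD element (CATTCC). No motif here holds another. The regions are chr16:57754738-57754987 (minus strand) for Col8a1, chr1:45311288-45311537 (plus strand) for Col3a1 and chr1:24177360-24177609 (plus strand) for Col9a1.
Col8a1: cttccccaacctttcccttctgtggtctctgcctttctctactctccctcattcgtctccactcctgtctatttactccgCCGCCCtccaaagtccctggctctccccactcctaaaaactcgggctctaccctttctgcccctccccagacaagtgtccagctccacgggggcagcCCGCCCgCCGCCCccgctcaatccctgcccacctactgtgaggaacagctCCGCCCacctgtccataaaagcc
Col3a1: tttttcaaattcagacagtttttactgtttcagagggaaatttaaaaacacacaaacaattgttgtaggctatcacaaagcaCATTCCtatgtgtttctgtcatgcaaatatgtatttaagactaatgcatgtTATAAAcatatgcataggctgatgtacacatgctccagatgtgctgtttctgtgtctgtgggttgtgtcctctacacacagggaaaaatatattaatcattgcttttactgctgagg
Col9a1: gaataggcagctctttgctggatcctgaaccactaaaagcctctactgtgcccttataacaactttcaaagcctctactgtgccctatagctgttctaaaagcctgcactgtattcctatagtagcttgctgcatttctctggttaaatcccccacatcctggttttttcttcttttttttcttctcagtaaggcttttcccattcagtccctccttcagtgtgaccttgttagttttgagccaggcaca

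The Col8a1 window held 4 matches to GGGCGG, all on the opposite strand and starting 170, 73, 66 and 23 bases before the start site. The Col3a1 window held 1 CATTCC match at 168 bases and 1 TATAAA match at 117 bases before the start site, and the Col9a1 window held no match to any of the 5 motifs. A window was in the table for 35 of the 44 collagen genes. GGGCGG stood in 21 of the 35 (60.0%) and in 32.7% of all 32851 windows of the same length, CCAAT in 12 (34.3%, against 33.8%), TATAAA in 5 (14.3%, against 12.4%), CATTCC in 3 (8.57%, against 12.6%) and TGANTCA in 1 (2.86%, against 6.75%). Of the 7 genes that passed the test and have a window, 3 held GGGCGG (Col8a1, Col5a1 and Col23a1) and 2 held TATAAA (Col3a1 and Col13a1). These are matches of letters and were not tested as sites.

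Among the other fibrillar chains, 2 of the 3 chains of type V collagen, which joins type I in mixed fibrils and sets their diameter, were lower in the libraries labelled cKO. Col5a2 (chromosome 1, 45374321 to 45503282, minus strand) was at 53.3, 48.8 and 62.1 CPM under the label Ctrl and 25.3, 39.8 and 30.3 CPM under the label cKO (log2 fold change -0.78, SE 0.17, edgeR adjusted p = 0.0189). Col5a1 (chromosome 2, 27886425 to 28039514, plus strand) was at 59.0, 53.4 and 72.4 CPM against 35.9, 49.3 and 40.5 CPM (log2 fold change -0.56, SE 0.15, edgeR adjusted p = 0.0368). For both, cKO 2 came nearest to the libraries labelled Ctrl without reaching them. Col5a2 did not pass without Ctrl 1 (adjusted p = 0.0572) or cKO 3 (0.0653), and Col5a1 did not pass without Ctrl 1 (0.0877), Ctrl 3 (0.0783), cKO 1 (0.10) or cKO 3 (0.103). The third chain, Col5a3, was at 28.5, 28.4 and 73.6 CPM against 32.2, 67.0 and 27.8 CPM, overlapped between the groups and did not pass (log2 fold change -0.04, SE 0.47, adjusted p = 0.964).

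Type I collagen, the main component of tendon and of scar tissue, did not pass the test in either chain. Col1a1 was at 163, 131 and 179 CPM under the label Ctrl and 64.8, 322 and 115 CPM under the label cKO. Col1a2 was at 273, 246 and 273 CPM under the label Ctrl and 140, 495 and 238 CPM under the label cKO. For both chains cKO 2 was the highest of the 6 libraries, while cKO 1 and cKO 3 lay below all 3 libraries labelled Ctrl. The log2 fold change was 0.08 (SE 0.52, edgeR adjusted p = 0.923) for Col1a1 and 0.14 (SE 0.40, adjusted p = 0.824) for Col1a2. Without cKO 2 these became -0.83 (SE 0.26, adjusted p = 0.0594) and -0.50 (SE 0.22, adjusted p = 0.145), neither of which passed.

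Col3a1 transcripts per kb exceeded those of Col1a1 by 2.35, 2.54 and 2.95 times in the libraries labelled Ctrl and by 2.15 and 1.62 times in cKO 1 and cKO 3, while the ratio in cKO 2 was 0.840. The groups did not overlap, the log2 ratio differed by -0.86 (-0.48 without cKO 2), and the exact two-sided permutation p was 0.1, the smallest possible (0.18 adjusted over 9 pairs). The ratio of Col1a1 to Col1a2, whose proteins join in type I trimers, was 0.539, 0.482 and 0.589 against 0.417, 0.587 and 0.434 and overlapped between the groups (exact permutation p = 0.3). Col5a1 over Col5a2 was 0.873, 0.863 and 0.919 against 1.12, 0.977 and 1.05, a small shift without overlap (difference 0.24 on the log2 scale, exact permutation p = 0.1, 0.18 adjusted over 9 pairs).

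**Figure D3:**
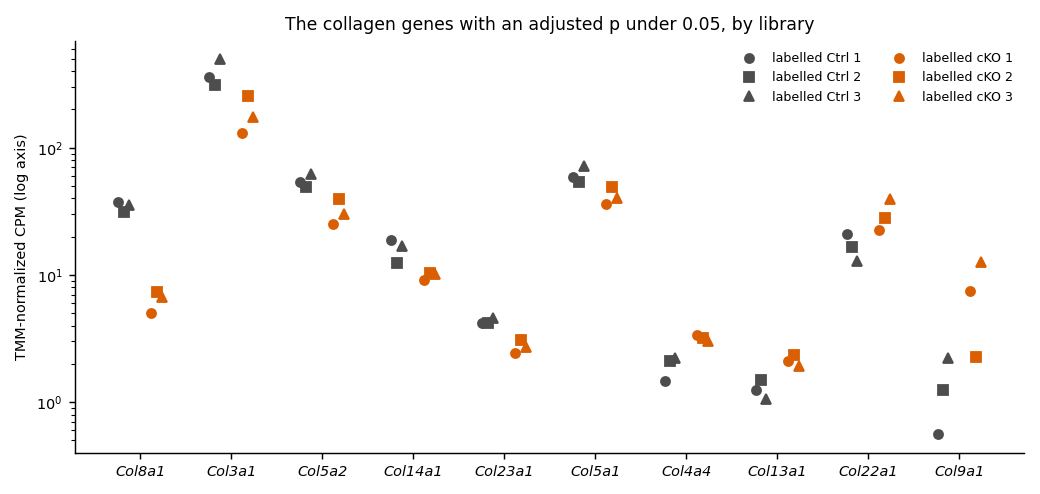
TMM-normalized CPM of the 10 collagen genes with an adjusted p under 0.05, 1 point per library, on a log axis. Col8a1 shows the widest gap between the labelled groups, from 31.2 CPM in the lowest library labelled Ctrl to 7.37 CPM in the highest labelled cKO, while Col9a1 ranges from 2.26 to 12.6 CPM within the group labelled cKO.

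Some collagens spread widely within the group labelled cKO. In 7 of the 41 genes (17.1%) the highest library labelled cKO was over 3 times the lowest, beside 3.70% of all genes, and in the group labelled Ctrl this held for 2 (4.88%, beside 2.62%). Of the 7, 6 had their highest value in cKO 2 and their lowest in cKO 1, namely Col1a1, Col1a2, Col2a1, Col11a1, Col12a1 and Col8a2, and the other was Col9a1. Col12a1, a fibril-associated collagen of tendon and fascia, was at 5.503, 25.5 and 10.2 CPM in the libraries labelled cKO and at 15.3, 13.1 and 13.8 CPM in those labelled Ctrl. Col11a1, a minor fibrillar chain, was at 1.38, 8.78 and 3.54 CPM and at 2.58, 2.87 and 2.08 CPM. The order cKO 2 above cKO 3 above cKO 1 held for 22 of the 41 collagens (53.7%), beside 20.0% of all genes tested. These genes were singled out by their spread, so the counts are given as a description.

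Markers of tenocytes, the fibroblasts of tendon, took the same order among the libraries labelled cKO. The 7 markers summed to 336, 348 and 363 CPM under the label Ctrl and to 167, 728 and 393 CPM in cKO 1, cKO 2 and cKO 3. Tnmd, a membrane protein of mature tenocytes, was at 4.62, 6.78 and 4.68 CPM against 2.82, 20.9 and 8.43 CPM, and Fmod, a proteoglycan of tendon fibrils, was at 164, 135 and 137 CPM against 77.4, 446 and 216 CPM. Among the libraries labelled cKO, each of the 7 markers was highest in cKO 2 and lowest in cKO 1, and 1 of the 7, Kera, passed the test, as higher in the libraries labelled cKO, beside 12.6% of all genes. That order was not particular to tenocyte markers. Macrophage markers also held it, with sums of 106, 134 and 122 CPM in cKO 1, cKO 2 and cKO 3. So did the fibro-adipogenic progenitor markers without Gsn (755, 941 and 903 CPM), though not with it. Endothelial (372, 402 and 368 CPM) and mural cell markers (359, 352 and 351 CPM) did not. The part of tendon cells in the collagen values was not tested.

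**Figure D4:**
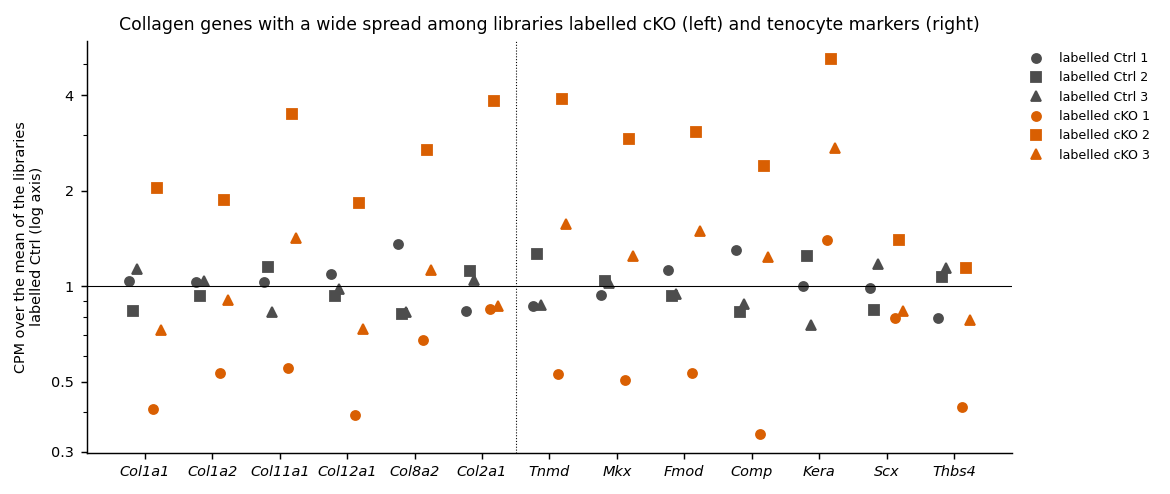
CPM of 6 collagen genes with a wide spread (left of the dotted line) and of the 7 tenocyte markers (right), each divided by its mean over the libraries labelled Ctrl, 1 point per library on a log axis. The library labelled cKO 2 is the highest of those labelled cKO for all 13 genes.

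In the basement membrane, the main type IV chains did not pass the test. Col4a1 was at 203, 187 and 278 CPM under the label Ctrl and 161, 211 and 157 CPM under the label cKO (log2 fold change -0.34, SE 0.18, edgeR adjusted p = 0.210). Col4a2 was at 148, 156.5 and 219 CPM against 126.5, 175 and 130.5 CPM (log2 fold change -0.28, SE 0.19, adjusted p = 0.312). The groups overlapped for both, and Ctrl 3 was the highest library. The genes lie head to head on chromosome 8, with start sites whose transcripts overlap by 22 bases, and their ratio per kb stayed between 1.17 and 1.34 in all 6 libraries (exact permutation p = 0.7).

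Of the 4 chains of the minor type IV networks, Col4a4 passed the test, Col4a3 and Col4a6 missed it narrowly, these 3 with higher values under the label cKO, and Col4a5 overlapped between the groups. Col4a4 (chromosome 1, 82448423 to 82586849, minus strand) was at 1.46, 2.12 and 2.21 CPM under the label Ctrl and 3.39, 3.17 and 3.02 CPM under the label cKO and passed the test (log2 fold change 0.72, SE 0.20, edgeR adjusted p = 0.0380). Its neighbour Col4a3 was at 3.06, 4.05 and 3.20 CPM against 5.50, 4.31 and 5.04 CPM (log2 fold change 0.52, SE 0.17, adjusted p = 0.0601), and Col4a6 was at 0.409, 0.603 and 0.629 CPM against 1.04, 1.07 and 0.818 CPM (log2 fold change 0.83, SE 0.27, adjusted p = 0.0609). None of the 3 overlapped between the groups (22.0% of all genes were higher under the label cKO without overlap), but Col4a3 and Col4a6 missed the threshold and Col4a4 did not pass without Ctrl 1, Ctrl 2, cKO 1, cKO 2 or cKO 3 (adjusted p = 0.0933, 0.0759, 0.107, 0.0662 and 0.0912) or with scaling by total counts (0.109). Other alternatives went the other way, as Col4a3 passed in DESeq2's Wald test (adjusted p = 0.0385) and Col4a6 passed in edgeR with 10 counts asked for in each library (0.0478). Col4a3 shares 5.65% of its exon bases with a gene on the opposite strand, and whether the counting used strand is not given in the sources used here.

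Col4a3 and Col4a4 are transcribed away from each other from start sites 71 bases apart. The stretch between them, chr1:82586850-82586920 (GRCm38), is shown because 1 interval lies before both genes, and it is written on the strand of Col4a4 with none of the 5 motifs in it.
Col4a4 to Col4a3: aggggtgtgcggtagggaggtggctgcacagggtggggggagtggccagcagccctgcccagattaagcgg

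The ratio of Col4a3 to Col4a4 per kb was 2.49, 2.26 and 1.71 under the label Ctrl and 1.92, 1.61 and 1.97 under the label cKO and overlapped (exact permutation p = 0.3). Col4a5 and Col4a6, whose start sites are 1308 bases apart on chromosome X, form another such pair. Col4a5 was at 5.82, 4.66 and 6.04 CPM against 4.52, 6.39 and 4.55 CPM (log2 fold change -0.096, SE 0.18, edgeR adjusted p = 0.736). Its ratio to Col4a6 per kb was 14.5, 7.85 and 9.77 against 4.40, 6.10 and 5.65. That ratio did not overlap between the groups (difference -0.96 on the log2 scale, exact permutation p = 0.1, 0.18 adjusted over 9 pairs).

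Both Col15a1 and Col18a1, collagens of the basement membrane zone, carry antiangiogenic fragments at their ends. Col15a1 was at 28.5, 30.5 and 55.6 CPM under the label Ctrl and 29.8, 53.7 and 41.5 CPM under the label cKO (log2 fold change 0.13, SE 0.30, edgeR adjusted p = 0.786). Col18a1 was at 14.2, 16.8 and 24.6 CPM against 11.9, 14.7 and 12.5 CPM (log2 fold change -0.51, SE 0.20, adjusted p = 0.112). Both overlapped between the groups, as did Col7a1, the anchoring fibril chain, at 23.9 to 39.1 CPM against 34.2 to 43.4 CPM. Endothelial markers, which share the vessel wall with these chains, summed to 402 to 415 CPM against 368 to 402 CPM, and 0 of 7 passed in edgeR or DESeq2, with 1 at an unadjusted p under 0.05, beside 24.4% of all genes that passed in edgeR's test.

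**Figure D5:**
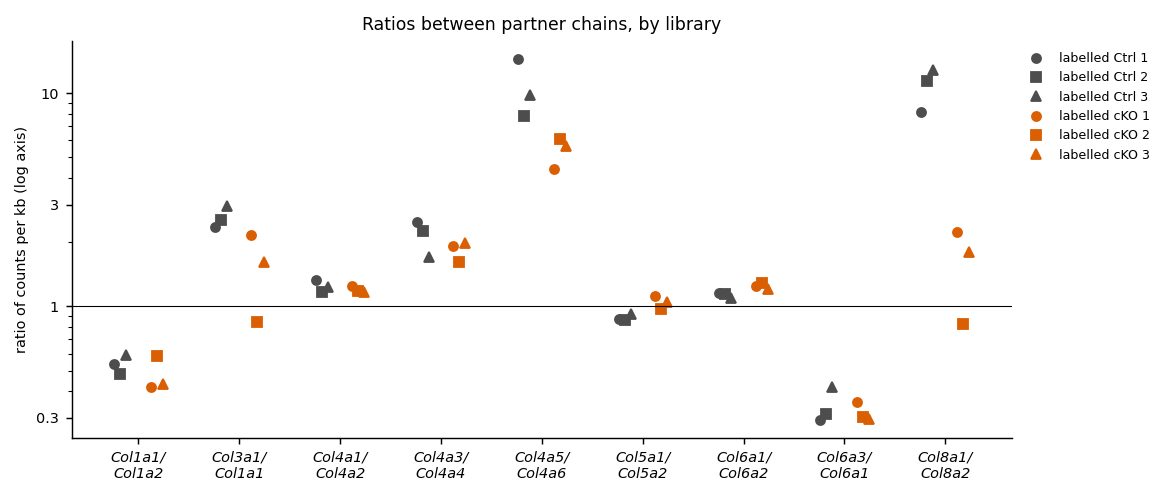
Ratio of counts per kb of mRNA between 9 pairs of collagen chains, 1 point per library, on a log axis with a line at equal levels. Col8a1/Col8a2 falls from 8.18 to 12.9 in the libraries labelled Ctrl to 0.822 to 2.23 in those labelled cKO, and Col4a1/Col4a2 stays at 1.17 to 1.34.

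Type VI collagen, whose chains are mutated in congenital muscular dystrophies, did not pass the test in any of its 3 main chains. Col6a1 was at 96.6, 93.6 and 120.5 CPM under the label Ctrl and 65.0, 108 and 78.3 CPM under the label cKO (log2 fold change -0.30, SE 0.19, edgeR adjusted p = 0.288). Col6a2 was at 80.4, 78.7 and 106 CPM against 50.01, 81.5 and 62.7 CPM (log2 fold change -0.45, SE 0.19, adjusted p = 0.134). Col6a3 was at 70.0, 71.9 and 124 CPM against 57.3, 80.9 and 56.9 CPM (log2 fold change -0.45, SE 0.25, adjusted p = 0.228). In each chain cKO 2 was the library that reached into the range of those labelled Ctrl, and without it Col6a1 and Col6a2 passed (log2 fold change -0.54 and -0.66, adjusted p = 0.0367 and 0.0328) while Col6a3 did not (-0.65, adjusted p = 0.109). The ratio of Col6a1 to Col6a2 per kb was 1.16, 1.15 and 1.09 against 1.25, 1.28 and 1.20, without overlap but by 0.14 on the log2 scale (exact permutation p = 0.1, 0.18 adjusted over 9 pairs), and that of Col6a3 to Col6a1 was 0.294, 0.312 and 0.417 against 0.357, 0.303 and 0.295 (p = 0.7).

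Of the fibril-associated collagens, Col14a1, which binds decorin on fibrils, was at 18.7, 12.5 and 16.7 CPM under the label Ctrl and 9.06, 10.3 and 10.1 CPM under the label cKO (chromosome 15, 55307750 to 55520803, plus strand). It was lower in the libraries labelled cKO (log2 fold change -0.70, SE 0.16, edgeR adjusted p = 0.0198) with Ctrl 2 the nearest to that group. It did not pass without Ctrl 1 (adjusted p = 0.0671), cKO 1 (0.0691) or cKO 3 (0.0602). Col22a1, a product of muscle fibers at the myotendinous junction, went the other way, at 20.8, 16.5 and 12.9 CPM against 22.4, 28.1 and 39.5 CPM (chromosome 15, 71795795 to 72034227, minus strand; log2 fold change 0.85, SE 0.24, adjusted p = 0.0428). The highest library labelled Ctrl and the lowest labelled cKO were close, and Col22a1 passed without cKO 1 only among the single libraries left out, with an adjusted p of 0.0537 to 0.134 in the other cases and of 0.108 with scaling by total counts.

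Of the transmembrane collagens, Col13a1, which muscle fibers place at the neuromuscular junction, was at 1.25, 1.496 and 1.07 CPM under the label Ctrl and 2.12, 2.34 and 1.93 CPM under the label cKO (chromosome 10, 61838236 to 61979108, minus strand). It was higher in the libraries labelled cKO (log2 fold change 0.74, SE 0.20, edgeR adjusted p = 0.0365) with narrow groups, but it did not pass without any 1 of the 6 libraries (adjusted p = 0.0562 to 0.110) or with scaling by total counts (0.125). Col25a1, needed by developing muscle for innervation, was at 0.230, 0.265 and 0.328 CPM against 0.282, 0.3895 and 0.318 CPM and overlapped (log2 fold change 0.27, SE 0.31, adjusted p = 0.567). Of 6 further junction genes, 4 had a log2 fold change below 0 and 2 above 0 (median -0.32). Only 1 of the 6, Rapsn, passed, as higher in the libraries labelled cKO (log2 fold change 0.26, SE 0.08, adjusted p = 0.0460), as did 12.6% of all genes. The summed level of the 6 was 110 to 135 CPM against 96.9 to 114.5 CPM. Col23a1 was lower in the libraries labelled cKO, at 4.21, 4.20 and 4.57 CPM against 2.43, 3.06 and 2.70 CPM (chromosome 11, 51289920 to 51583918, plus strand; log2 fold change -0.66, SE 0.15, adjusted p = 0.0195). Its groups were clearly apart, and it did not pass without Ctrl 1 (0.0609), Ctrl 2 (0.0566), cKO 1 (0.0576) or cKO 3 (0.0671).

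Of all collagens tested, 15 of the 41 genes (36.6%) did not overlap between the groups, beside 43.9% of all genes, with 8 lower and 7 higher in the libraries labelled cKO. They are the 10 that passed and Col4a3, Col4a6, Col11a2, Col16a1 and Col26a1. The other 26 overlapped, and their log2 fold changes lay between -0.51 (Col18a1) and 0.87 (Col2a1). Col4a3bp, the ceramide transfer protein gene that shares the symbol pattern, was at 65.3, 59.0 and 75.3 CPM under the label Ctrl and 78.1, 91.5 and 84.3 CPM under the label cKO (log2 fold change 0.35, SE 0.11, edgeR adjusted p = 0.0576).

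Genes of collagen maturation and secretion, most of which act on the chains after translation, were examined in a list of 40 symbols, of which 37 were tested. Of the 37, 7 were lower under the label cKO and 2 were higher, a share of 24.3% beside 24.4% of all genes, with a median log2 fold change of -0.33. The 4 called genes were all lower, where 3.92% of all genes were called lower and 2.13% higher. P3h2, a prolyl 3-hydroxylase that acts on type IV and other chains, was at 35.5, 35.0 and 32.1 CPM against 3.08, 8.41 and 3.02 CPM (log2 fold change -2.82, SE 0.39, edgeR adjusted p = 0.00459). Lox, the oxidase that starts the cross-linking of fibrils, was at 71.4, 78.5 and 56.2 CPM against 10.5, 23.9 and 12.0 CPM (log2 fold change -2.15, SE 0.31, adjusted p = 0.00544). For both, even cKO 2 lay far below the lowest library labelled Ctrl.

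Plod2, which hydroxylates the lysines of the collagen telopeptides, was at 8.45, 6.90 and 8.72 CPM against 3.42, 4.67 and 3.09 CPM (log2 fold change -1.11, SE 0.19, edgeR adjusted p = 0.00819), and Loxl1, a relative of Lox, was at 30.2, 30.4 and 47.4 CPM against 15.0, 23.1 and 13.3 CPM (log2 fold change -1.07, SE 0.26, adjusted p = 0.0248). Plod1, Plod3 and Bmp1, the procollagen C-proteinase, were lower by less (log2 fold change -0.37, -0.45 and -0.39). The 2 that were higher, Mia3 and Sec23a, load and coat the vesicles that carry procollagen out of the endoplasmic reticulum (log2 fold change 0.49 and 0.51, adjusted p = 0.00688 and 0.0186). Serpinh1, the collagen chaperone, was at 110, 76.9 and 133 CPM against 52.3, 90.6 and 57.7 CPM, and P4ha1, a catalytic subunit of prolyl 4-hydroxylase, at 65.5, 48.4 and 69.7 CPM against 47.0, 53.7 and 44.5 CPM, and neither passed (adjusted p = 0.10 and 0.134).

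Proteins that bind collagen fibrils passed the test in 9 of 20 (45.0%, beside 24.4% of all genes), with 8 lower and 1 higher in the libraries labelled cKO (11.8% and 12.6% of all genes). Fmod, Kera, Comp and Thbs4 are also in the tenocyte list, and Dcn, Dpt and Lum in that of fibro-adipogenic progenitors, so their results are counted in both lists. Called were Cilp (log2 fold change -2.51, SE 0.39), Postn (-2.39, SE 0.33), Bgn (-1.47, SE 0.18) and Fn1 (-1.04, SE 0.19), all lower, and Kera (1.63, SE 0.45), higher, beside 3.92% of all genes called lower and 2.13% called higher. The highest library labelled cKO was over 3 times the lowest for Fmod, Kera, Thbs1, Thbs2, Comp and Cilp (3.06 to 7.01 times), as for the collagens with a wide spread. Postn, periostin, was at 30.2, 35.9 and 54.3 CPM against 5.98, 11.3 and 5.68 CPM, and Cilp, a matrix protein of fibroblasts, was at 172, 178 and 256 CPM against 18.2, 55.7 and 32.4 CPM. Of 13 receptors and uptake proteins tested, Itgb1 and Cspg4 were lower (log2 fold change -0.30 and -0.52, adjusted p = 0.0432 and 0.0189) and 0 were higher, and the collagen receptor kinases Ddr1 and Ddr2 did not pass (adjusted p = 0.685 and 0.642). Of 7 collagen-degrading enzymes tested, 0 passed in edgeR's test and 0 had an unadjusted p under 0.05, with log2 fold changes from -0.40 to 0.34. DESeq2 passed 1 as lower, counted over all 10 enzymes listed, including those under edgeR's count filter.

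Of 14 genes of the signals that induce collagen synthesis, 4 were lower and 3 higher in the libraries labelled cKO (7 of 14 in all, beside 24.4% of all genes, 11.8% as lower and 12.6% as higher). Ctgf, a matrix protein induced by TGF-β, was at 198, 125 and 157 CPM against 43.2, 59.4 and 57.2 CPM (log2 fold change -1.59, SE 0.19, edgeR adjusted p = 0.00340), and Tgfb1 itself was lower (log2 fold change -0.76, SE 0.11, adjusted p = 0.00524). Smad3, which carries the TGF-β signal to the nucleus, was higher, at 39.3, 51.1 and 65.1 CPM against 171, 140 and 135 CPM (log2 fold change 1.52, SE 0.19, adjusted p = 0.00365). The members of the list thus differed in direction.

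Markers of fibro-adipogenic progenitors, the main fibroblasts of muscle, summed to 2158 to 2372 CPM under the label Ctrl and 1795 to 2012 CPM under the label cKO, and 5 of 10 were lower and 0 higher in the latter by edgeR's test, beside 11.8% and 12.6% of all genes, which is also the background of the edgeR counts of markers that follow. Gsn, an actin-severing protein, held 57.2% of the summed level over the 6 libraries and did not pass (adjusted p = 0.0528), and without it the sums overlapped, at 923 to 938 CPM against 755 to 941 CPM. At an unadjusted p under 0.05, 6 were lower and 0 higher, beside 19.6% and 19.2% of all genes, and in DESeq2 6 and 0 passed, beside 12.3% and 14.1%. Mural cell markers summed to 406 to 431 CPM against 351 to 359 CPM with 2 of 6 lower, and Schwann cell markers to 143 to 208.5 CPM against 81.4 to 132 CPM with 1 of 7 lower, Pmp22, without which the sums overlapped. Satellite cell markers summed to 64.5 to 104 CPM against 38.1 to 62.0 CPM, and 0 of 5 passed in edgeR's test, with 1 lower at an unadjusted p under 0.05 and 1 in DESeq2. Sdc4 held 89.8% of that sum, without which the groups overlapped at 5.93 to 6.15 CPM against 5.703 to 8.31 CPM, and the median log2 fold change of the 5 markers was 0.24. Adipocyte markers overlapped at 24.2 to 78.6 CPM against 32.2 to 75.3 CPM, and 0 of 6 passed in edgeR or DESeq2 or at an unadjusted p under 0.05. The part of these cell types in the collagen values was not tested.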

How the data were processed

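RNA-Seq libraries of whole GP muscle, 1 per mouse, numbered 3 in each labelled group. The authors deposited raw counts per gene, made per the labels and the study's methods with Trimmomatic 0.39, HISAT2 2.1.0 (mm10) and featureCounts 1.6.2. The annotation and the use of strand are not given in the sources used here. Tests ran on these counts with edgeR 4.0.16 under R 4.3.3 (TMM, filterByExpr, quasi-likelihood test, Benjamini-Hochberg adjustment over all 14180 genes tested). A gene passed at an adjusted p under 0.05 and was called if its fold change was also over 2, as in the study. DESeq2 1.42.0 was an alternative to edgeR. Lengths and positions came from GENCODE M21 on GRCm38. For chain ratios, an exact permutation test over libraries was used, two-sided, with a smallest possible p of 0.1.

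The collagen genes, gene lists and comparisons were chosen with earlier results of these data known. Named with values were the collagens that passed, the main chains of types I, III, IV, V, VI, XIII, XV, XVIII and XXV, partner chains, called members of the pathway lists with up to 4 members per direction with the smallest p, and Serpinh1, Lox and P4ha1. Marker lists were given by summed level and count, and some of their genes are also in the pathway lists. Other collagens, pathway genes and single markers were named after their values were seen. No library repeated another (chi-square over degrees of freedom 29.5 to 101 within groups). Alternatives were scaling by total counts or DESeq2 size factors, leaving out the filter or asking for 10 counts in each library, the Wald test of DESeq2, a replicate block, a robust dispersion, no fold change limit and each library left out. Those for summed levels and chain ratios were added after seeing the data.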

Additional observations from a re-analysis of the deposited data

How the results depend on the processing

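Col8a1 passed the test in all 13 alternatives. Over the 10 genes that passed, 81 of 130 alternative values passed too and 49 did not, with no change of direction. Over the 31 that did not pass, 11 of 399 alternative values did. With a library left out, 1 to 9 collagens passed as lower and 0 to 3 as higher, while 10.8% to 24.8% of all genes passed. The 2 called collagens lower in the libraries labelled cKO became 4 with total counts, 1 with the replicate block, 6 with no fold change limit, 3 in DESeq2's Wald test and 1 to 2 with a library left out. Col6a4, which did not pass the count filter over all 6 libraries, was among the 3 and, without Ctrl 1, was called with Col8a1 while Col3a1 was not. The 1 called higher became 0 with a robust dispersion, 4 with no fold change limit and 0 to 2 with a library left out. The called maturation genes, 4 lower and 0 higher, became 7 and 2 with no fold change limit. Scaling by total counts moved the median over all genes (log2 fold change) from -0.02 to -0.27, and 10 collagens then passed as lower and 1 as higher, with a collagen median of -0.26, while the share of all genes that passed went from 24.4% to 33.5%. The correlation of deviations between same-numbered libraries was 0.08, -0.24 and -0.01, and between differently numbered ones it reached 0.22 (Ctrl 2 and cKO 1). With 3 libraries per group these values cannot show whether mice were paired, and the main test used no pairing. With the replicate block, 2 collagens passed as lower (Col5a2 and Col8a1) and 1 as higher (Col9a1), beside 13.4% of all genes, and Col3a1 did not (log2 fold change -1.09, adjusted p = 0.056).

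Directions changed only in genes that did not pass, in 29 of 399 values. With total counts, Col1a1 was at -0.12, Col1a2 at -0.075 and Col15a1 at -0.11, and with the replicate block Col1a1 was at -0.25, Col1a2 at -0.055 and Col5a3 at 0.015. Col9a2 was at 0.00497 with DESeq2 size factors, 0.00581 with no filter and 0.00166 in DESeq2's Wald test. With a library left out the log2 fold changes ran from -0.54 to 0.20 for Col19a1, -0.83 to 0.46 for Col1a1, -0.50 to 0.46 for Col1a2, -0.23 to 1.21 for Col2a1, -0.031 to 1.28 for Col11a1, -0.11 to 0.50 for Col15a1, -0.30 to 0.17 for Col9a2, -0.16 to 0.91 for Col8a2, -0.54 to 0.58 for Col5a3 and -0.84 to 0.34 for Col12a1. The log2 ratio of Col6a3 to Col6a1 also changed sign without Ctrl 3 (0.07). The cause was not tested. For Col1a1 the log2 fold change (0.08) was smaller than its SE (0.52), so these libraries do not show that its level was equal in both groups.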
